A study of Mus musculus with 6 samples.

Results

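The core circadian clock of mouse liver was followed here through 10 genes, Arntl, Clock, Npas2, Per1, Per2, Per3, Cry1, Cry2, Nr1d1 and Nr1d2. They were chosen with earlier results of these data known, and their probe sets were taken by gene symbol from the array's annotation. All 10 were on the array, among 12393 genes with a probe set of their own. They were read by 16 probe sets of 22626 tested, a probe set being a group of short probes that together give a single value. Expression was measured on one-colour Affymetrix 3' arrays in liver RNA of male C57BL/6J mice. Control mice were given distilled water, and mice of the group labelled Drinking source water (DSW) were given that water, both for 90 d. All mice had free access to food and lived in a cycle of 12 h light and 12 h dark. Each group began with 10 mice, of which 9 gave livers, and every 3 livers were homogenised into 1 RNA pool, so that each group had 3 arrays of pooled RNA. The age of the mice, the composition of the source water and the hour at which livers were taken are not given in the sources used here. A pool averages 3 animals, so the spread between pools is smaller than that between mice.

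The molecular clock is a loop of transcription and feedback. The activators CLOCK (or its relative NPAS2) and BMAL1, the product of Arntl, bind E-box sequences as a pair and switch on the Per and Cry genes. The PER and CRY proteins accumulate and repress that pair. In a second loop the same pair activates Nr1d1 and Nr1d2, which encode the repressors REV-ERB-alpha and REV-ERB-beta, and these compete with ROR receptors for the RORE sequences of Arntl, Clock, Npas2 and Cry1. In mouse liver the messages of most of these genes rise and fall over each day, Arntl being high when Per2 is low, and the clock of liver follows feeding as well as light.

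In source water, Arntl and Clock lay higher and Per2, Per3 and Cry1 lower than in control, each by about 0.7 to 1.2 on the log2 scale. The REV-ERB genes parted, with Nr1d1 higher and Nr1d2 lower. Per1 and Cry2 lay less far below control with overlapping groups, and the 95% confidence interval of Per1 ran from -0.70 to 0.11. Npas2 was near the dim end of the array. Because the genes were chosen with earlier results of these data known, the counts below describe them and test no enrichment. Of the 10 genes, each by its probe set with the highest mean, 8 had an unadjusted limma p under 0.05, 3 of them higher (Arntl, Clock, Nr1d1) and 5 lower (Per2, Per3, Cry1, Cry2, Nr1d2). Among all 12393 genes the share at that level was 6.76%, with 4.16% higher and 2.6% lower. With at least a 1.5-fold difference besides, 6 of the 10 remained, 3 higher and 3 lower, where the shares of all genes were 1.74%, 1.07% and 0.67%. For 6 of the 10 the pools of the 2 groups did not overlap, against 11.5% of all genes. After Benjamini-Hochberg adjustment over all 22626 probe sets, 0 of the 16 clock probe sets passed an adjusted p of 0.05, a level that 0.0398% of all probe sets reached, and 9 of the 16 had an unadjusted limma p under 0.05 (6.02% of all). With the 1.5-fold rule 7 of the 16 were left (1.49% of all), and 7 of the 16 had groups that did not overlap (10.7% of all). The median log2 difference of the 10 genes was -0.29, and that of all 12393 genes was -0.0016. Fewer cells of a type and less RNA per cell cannot be told apart in such bulk samples.

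Array medians lay between 5.79 and 5.86, and the correlation between any pair of arrays, taken over probe sets that are not independent, was 0.985 to 0.994. The tissue label was checked with 8 hepatocyte markers, which stood at percentile 97.4 of mean level or above, with 0 of 8 at an unadjusted limma p under 0.05. Of markers of 11 other cell types, the stellate cell list was the one whose summed level did not overlap between the groups. The log2 of the summed signal of its 6 genes ran from 9.32 to 9.54 in control and from 9.72 to 10.3 in source water, with 3 of 6 higher and 2 of 6 at an unadjusted limma p under 0.05. These were the collagen gene Col3a1, higher by 1.33 (limma adjusted p = 0.202), and Lrat, a retinol-storing enzyme gene that defines these cells. Lrat, dim at percentile 18.8 of mean level, differed by -0.27 (limma adjusted p = 0.710). The summed signal mostly follows the brightest genes of the list, Reln (higher by 0.32, with overlapping groups) and Col3a1. The part of this list in the clock values was not tested. Array controls also moved with the groups. The 3' minus 5' log2 signal of 3 of 8 bacterial spike-in pairs was higher in every source water array, by 0.54 to 0.61, while that of mouse Actb and Gapdh overlapped (-0.0015 and -0.066), and its part in the clock values was not tested.

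**Figure D1:**
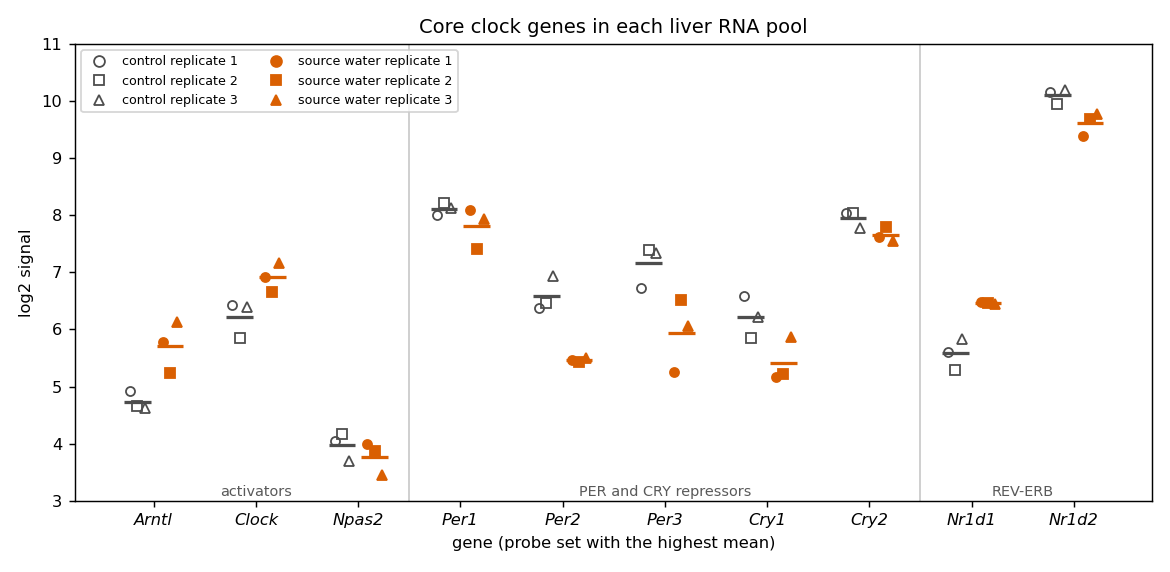
Log2 signal (y axis) of the 10 core clock genes (x axis), each by its probe set with the highest mean, in 3 control pools (open grey) and 3 source water pools (filled orange). Points are single arrays and bars are group means. Arntl, Clock and Nr1d1 lay wholly above control in source water, and Per2, Per3 and Nr1d2 wholly below it. Heights of different genes are not comparable.

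Arntl, the gene of BMAL1, had log2 signals of 4.92, 4.66 and 4.63 in control replicates 1 to 3, and of 5.78, 5.25 and 6.13 in source water replicates 1 to 3. Every source water pool thus lay above every control pool, and the source water pools were further apart from each other than the control pools (SD 0.44 against 0.16). The difference was 0.98 ± 0.21 (log2, SE), or 1.98-fold (limma adjusted p = 0.239). The control mean of 4.73 lay below the median probe set of the array.

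Clock was read by 2 probe sets. The brighter gave log2 signals of 6.42, 5.84 and 6.39 in control and of 6.92, 6.66 and 7.17 in source water. The other gave 6.10, 5.17 and 5.85 in control and 6.73, 6.44 and 7.01 in source water. Both separated the groups, and in both control replicate 2 was the lowest pool and source water replicate 3 the highest. The differences were 0.70 ± 0.19 and 1.02 ± 0.24 (log2, SE), with limma adjusted p-values of 0.421 and 0.335.

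Npas2, the relative of Clock that can take its place beside BMAL1, was read by 2 probe sets at percentiles 10.3 and 8.82 of mean level, near the dim end of the array. The brighter gave 4.04, 4.17 and 3.70 in control and 4.002, 3.86 and 3.45 in source water, and the groups overlapped. Its difference of -0.20 had a 95% confidence interval from -0.61 to 0.21 on the log2 scale, and the other differed by -0.13 (-0.37 to 0.11). A change of Npas2 was not detected at this signal.

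Per2 gave the smallest p among the 16 probe sets. Its brighter probe set read 6.37, 6.46 and 6.93 in control and 5.46, 5.42 and 5.50 in source water. All source water pools were lower and lay within a narrow band (SD 0.040, against 0.30 in control). The difference was -1.12 ± 0.15 (log2, SE), a level 2.18-fold lower, with a limma adjusted p of 0.0628. The other Per2 probe set, with a control mean of 5.04, differed by -0.18 (95% confidence interval -0.47 to 0.12) and its groups overlapped.

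Per3 had the largest difference of the 10 genes, in 1 of its 3 probe sets. That probe set read 6.73, 7.40 and 7.35 in control and 5.26, 6.51 and 6.06 in source water. Source water replicate 1 was the lowest pool, and source water replicate 2 came nearest to the lowest control pool. The difference was -1.22 ± 0.31 (log2, SE), a level 2.32-fold lower, with a limma adjusted p of 0.387. The remaining 2 probe sets had control means of 4.27 and 4.20, below the 25th percentile of probe sets, and differed by 0.03 (95% confidence interval -0.19 to 0.26) and 0.09 (-0.21 to 0.38).

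Per1, the remaining period gene and one that also answers to glucocorticoid and cAMP signals, did not separate the groups. It read 8.01, 8.21 and 8.12 in control and 8.10, 7.41 and 7.94 in source water. Only source water replicate 2 lay far from control, and without that pool the difference of -0.30 became -0.09. Its 95% confidence interval ran from -0.70 to 0.11 (limma adjusted p = 0.973).

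Cry1 read 6.59, 5.85 and 6.22 in control and 5.17, 5.22 and 5.86 in source water. Source water replicates 1 and 2 lay below all control pools, and source water replicate 3 was level with control replicate 2, so that the groups overlapped narrowly. The difference was -0.80 ± 0.24 (log2, SE), a level 1.75-fold lower (limma adjusted p = 0.505).

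Cry2, which encodes the second cryptochrome, read 8.04, 8.04 and 7.78 in control and 7.63, 7.80 and 7.55 in source water. Source water replicate 2 lay just above control replicate 3, and the groups overlapped. The difference was -0.29 ± 0.12 (log2, SE), with a limma adjusted p of 0.812. Its unadjusted p of 0.0464 was near 0.05 and stayed under 0.05 in 2 of 6 runs that each left out 1 array.

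Nr1d1, the gene of REV-ERB-alpha, read 5.61, 5.29 and 5.84 in control and 6.49, 6.46 and 6.44 in source water. The source water pools agreed closely (SD 0.024) and stood above all control pools. The difference was 0.88 ± 0.15 (log2, SE), or 1.84-fold, with a limma adjusted p of 0.105, the second smallest of the 16 probe sets. In the reference gene table Nr1d1 overlaps Thra, the gene of thyroid hormone receptor alpha. Of 2 Thra probe sets, the brighter was also higher in every source water pool, by 0.45 ± 0.12 (limma adjusted p = 0.419), while the other differed by -0.09 (95% confidence interval -0.40 to 0.22). Whether these values bear on the reading of Nr1d1 was not tested.

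Nr1d2, the gene of REV-ERB-beta, went the other way. Its brighter probe set, at percentile 90.1 of mean level, read 10.16, 9.95 and 10.19 in control and 9.38, 9.69 and 9.78 in source water. All source water pools lay below all control pools, and the difference was -0.48 ± 0.14 (log2, SE), a level 1.40-fold lower (limma adjusted p = 0.469). The other, with a control mean of 4.06, differed by 0.01 (95% confidence interval -0.26 to 0.29).

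**Figure D2:**
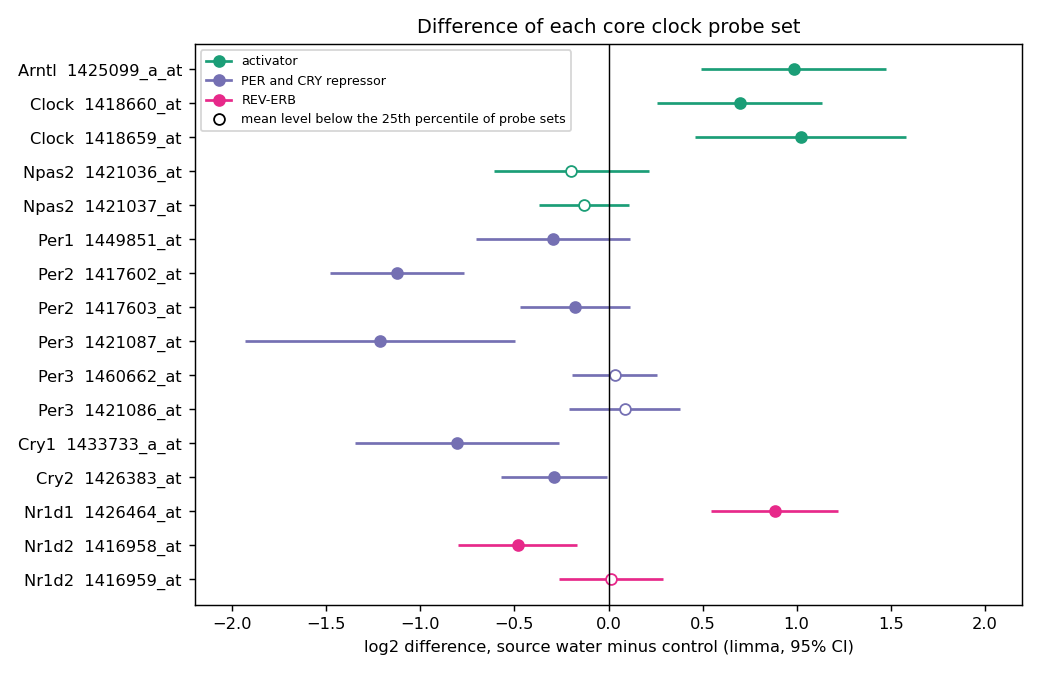
Log2 difference, source water minus control (x axis), of each of the 16 core clock probe sets (y axis), with limma 95% confidence intervals, coloured by role. Open points mark the 5 probe sets whose mean level lay below the 25th percentile of all probe sets. All 5 open points have intervals that cross 0.

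Probe sets of the same gene thus did not always agree. Of the 5 genes with more than 1 probe set, Clock differed alike in both, Npas2 was dim in both, and Per2, Per3 and Nr1d2 differed in the brightest alone. The 5 clock probe sets below the 25th percentile of mean level included 0 with an unadjusted limma p under 0.05, against 9 of the 11 brighter ones and 6.02% of all probe sets. The share of all probe sets on each side of that percentile was not computed, so the contrast is not read as an effect of signal level. When all probe sets of a gene were averaged, Per2 differed by -0.65, Per3 by -0.37 and Nr1d2 by -0.23, each with a limma adjusted p above 0.05. The 6 probe sets other than the brightest of each gene share their target gene with it and are no further replicates.

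The pools did not line up in a single order across the genes. Relative to the control mean, source water replicate 3 had the largest excess of Arntl (1.39) and Clock (0.95), while source water replicate 1 had the largest shortfall of Per3 (-1.90) and Nr1d2 (-0.72). Source water replicate 2 was the nearest to control in 4 of the 10 genes (Arntl, Clock, Per3, Cry2), replicate 3 in 4 (Per2, Cry1, Nr1d1, Nr1d2) and replicate 1 in 2 (Npas2, Per1). Per2 and Nr1d1 were alike in all 3 source water pools, at -1.16 to -1.08 and at 0.86 to 0.91.

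**Figure D3:**
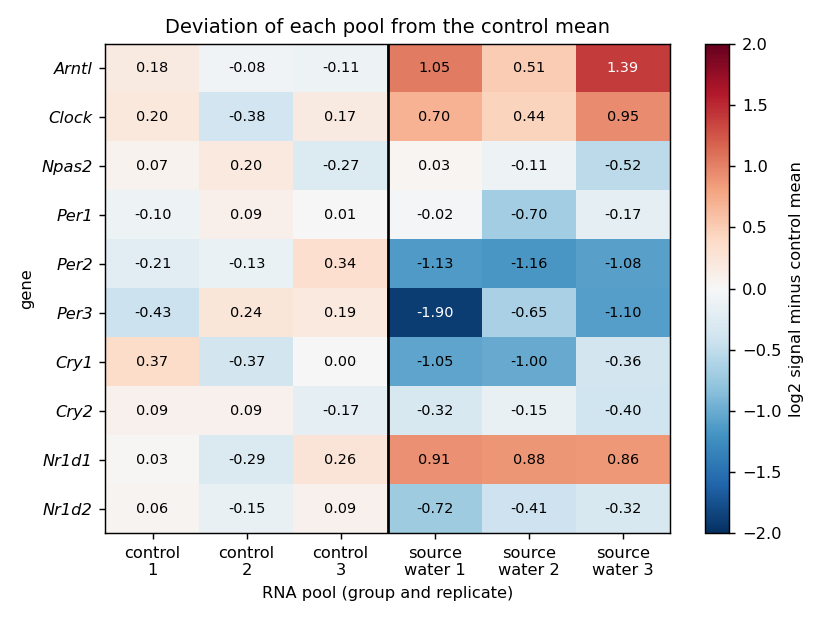
Log2 signal of each pool minus the mean of the 3 control pools, for the 10 core clock genes (rows) and 6 RNA pools (columns), red for higher and blue for lower. All source water cells are red for Arntl, Clock and Nr1d1 and blue for Per2, Per3, Cry1, Cry2 and Nr1d2, while Per2 ran from -1.16 to -1.08 and Per3 from -1.90 to -0.65.

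The regulatory letters behind these loops are shown because CLOCK with BMAL1, the ROR and REV-ERB receptors and the PAR bZIP factors are known to act through them. RefSeq promoter windows of GRCm38.p6, from 250 bases before to 50 after each start, were found for 9 of the 10 genes, in 13 windows, and none for Per2. Searched on both strands were the E-box CACGTG, its variant CACGTT, a D-box TTATGTAA, which PAR bZIP factors bind, and a RORE form AGTAGGTNA, and no motif overlapped another. Matches were found for 6 genes. Capitals mark the matches, and CACGTT appears as AACGTG where it lies on the opposite strand.
Arntl, RORE form, chr7:113207493-113207521, plus strand: ttggtcggaaAGTAGGTTAgtggtgcgac
Arntl, RORE form, chr7:113207529-113207557, plus strand: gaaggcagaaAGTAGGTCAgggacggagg
Per1, E-box, chr11:69098771-69098800, plus strand: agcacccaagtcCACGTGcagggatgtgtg
Per3, D-boxes, chr4:151044804-151044882, minus strand: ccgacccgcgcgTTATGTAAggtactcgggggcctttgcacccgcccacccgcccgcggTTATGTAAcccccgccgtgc
Cry1, E-box variant and E-box, chr10:85185097-85185145, minus strand: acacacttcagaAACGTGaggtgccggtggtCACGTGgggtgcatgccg
Cry2, E-box variant, chr2:92434218-92434247, minus strand: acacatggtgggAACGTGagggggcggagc
Nr1d1, E-box variant, chr11:98775388-98775417, minus strand: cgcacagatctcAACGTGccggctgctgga

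Arntl, which lay higher in source water, carried the RORE form at 2 places around its second listed start, a form that 0.591% of 32817 windows hold. That share is of this narrow form alone, and other forms of the RORE were not searched. The Arntl matches differ only at the free letter N of the form, so the share is not read as an enrichment at Arntl. Per3, which lay lower, carried the D-box at 2 places, at positions -205 to -198 and -158 to -151 from the start, where 0.935% of windows hold it. Per1 and Cry1 held the E-box, found in 7.15% of windows, and Cry1, Cry2 and Nr1d1 held the variant, found in 4.69%. Genes with the E-box or its variant lay on both sides of control, Nr1d1 higher and Cry1 lower. The windows of Clock, Npas2 and Nr1d2 held none of these letters, which says nothing of elements elsewhere or of forms not searched. A match is a description of letters and no measure of binding.

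Beyond the core, genes tied to the clock were taken as lists and read by the brightest probe set of each gene. These lists, too, were chosen with earlier results of these data known, so their counts describe and do not test. The PAR bZIP factors, which activate genes through D-boxes and are themselves classical targets of CLOCK and BMAL1, lay lower. Of 4 genes of that list, which also holds the D-box repressor Nfil3, 3 had an unadjusted limma p under 0.05, all lower, where 2.6% of all genes were lower at that level, and 0 passed over all probe sets. Dbp read 11.56, 11.60 and 11.67 in control and 10.31, 11.54 and 10.86 in source water, a difference of -0.71 ± 0.27 (log2, SE, limma adjusted p = 0.710). Source water replicate 2, which also came closest to control for Per3, was only just below control there. Without source water replicate 1 the Dbp difference was -0.41 and without replicate 2 it was -1.02, and its unadjusted p stayed under 0.05 in 1 of 6 runs that each left out 1 array. Tef differed by -0.61 ± 0.16 (limma adjusted p = 0.378), with other, dimmer probe sets at -0.15 and -0.05, and the second Dbp probe set at -0.65. The third, Hlf, named after its values were seen, read 7.65, 7.93 and 7.75 in control and 7.23, 7.28 and 7.42 in source water (-0.47 ± 0.12, limma adjusted p = 0.376), and its groups did not overlap, while its other probe set differed by -0.59 with overlapping groups.

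Genes of the proteins that modify PER and CRY, and of the loop's cofactors, gave counts that do not stand apart from the share of all genes. Of 17 measured kinases, ubiquitin ligases and deubiquitinases, 1 had an unadjusted limma p under 0.05, against 6.76% of all genes. It was Usp2, a deubiquitinase with a rhythmic message in liver, at 9.14, 9.62 and 8.94 in control and 7.35, 7.58 and 8.40 in source water (-1.46 ± 0.28, log2, SE, limma adjusted p = 0.169), with its second probe set at -1.73. The median of the 17 genes was -0.046. Of 18 coactivators and corepressors, 0 reached that level (median -0.058), and the 2 of smallest p were Kdm5a (-0.45 ± 0.28) and Med1 (-0.17 ± 0.14). Another Med1 probe set lay higher in source water by 0.74 (limma adjusted p = 0.122), so its probe sets disagree. Of 4 further repressors 0 reached it, with Bhlhe41 at -0.28 ± 0.14 and Cipc at -0.17 ± 0.18. Of the ROR receptors, which activate through the RORE, Rora differed by -0.23 ± 0.14, Rorb, at percentile 11.4 of mean level, by 0.0044, and 0 of 2 reached that level.

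Of 23 measured genes known as outputs of the clock in liver, 11 had an unadjusted limma p under 0.05, 4 higher and 7 lower, where the shares of all genes were 6.76%, 4.16% and 2.6%. The elongase gene Elovl3 alone of the 23 rose at an adjusted p of 0.05, a level that 0.0323% of all genes reached, 0.0242% on the higher side. Elovl3 read 9.33, 8.70 and 8.91 in control and 11.06, 10.62 and 11.43 in source water (2.06 ± 0.23, limma adjusted p = 0.0448). That call rested on a narrow margin: it held in 3 of 7 alternatives with all arrays (adjusted p 0.0144 to 0.496), and of 6 runs that each left out 1 array it held in 1, without source water replicate 2, with adjusted p-values of 0.0338 to 0.196. The list's median of 0.012 was near that of all genes, since its members lay on both sides. Nampt, the gene of the rate-limiting enzyme of NAD salvage and an E-box target, read 9.08, 8.48 and 9.04 in control and 7.19, 8.20 and 8.22 in source water, a difference of -0.997 ± 0.290 (limma adjusted p = 0.496), and its second probe set differed by -0.79. Every source water pool was lower, replicate 1 by the most, and without that pool the difference was -0.66. Wee1, a cell cycle kinase with E-boxes in its promoter, differed by -1.17 ± 0.16 (limma adjusted p = 0.0637), though its second, dimmer probe set differed by -0.33. Upp2, a uridine phosphorylase gene, differed by -1.29 ± 0.15 (limma adjusted p = 0.0516) and by -1.70 in its second probe set. Cyp7a1, whose enzyme starts the making of bile acids from cholesterol, also lay lower, by -1.41 ± 0.22 (limma adjusted p = 0.0972) and -1.57 in its second probe set. The metallothionein gene Mt1 differed by -0.59 ± 0.21 (limma adjusted p = 0.676), by -0.34 without source water replicate 2, and by 0.08 in its second probe set. On the higher side was the tubulin gene Tubb2a (1.37 ± 0.26, limma adjusted p = 0.167), whose second, dimmer probe set differed by 0.30. The cell cycle inhibitor gene Cdkn1a differed by 0.99 ± 0.39 (limma adjusted p = 0.739) with overlapping groups, and by 0.44 in its second probe set. Leaving out 1 array moved it from 0.57 (without source water replicate 3) to 1.44, with an unadjusted p under 0.05 in 2 of 6 such runs. The remaining 3 of the 11, named after their values were seen, were Pdk4, a kinase gene that holds back glucose oxidation (0.44 ± 0.14), and the liver glycogen synthase gene Gys2 (-0.38 ± 0.16) and the fatty acid sensor gene Ppara (-0.31 ± 0.11), each with a limma adjusted p between 0.577 and 0.818.

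**Figure D4:**
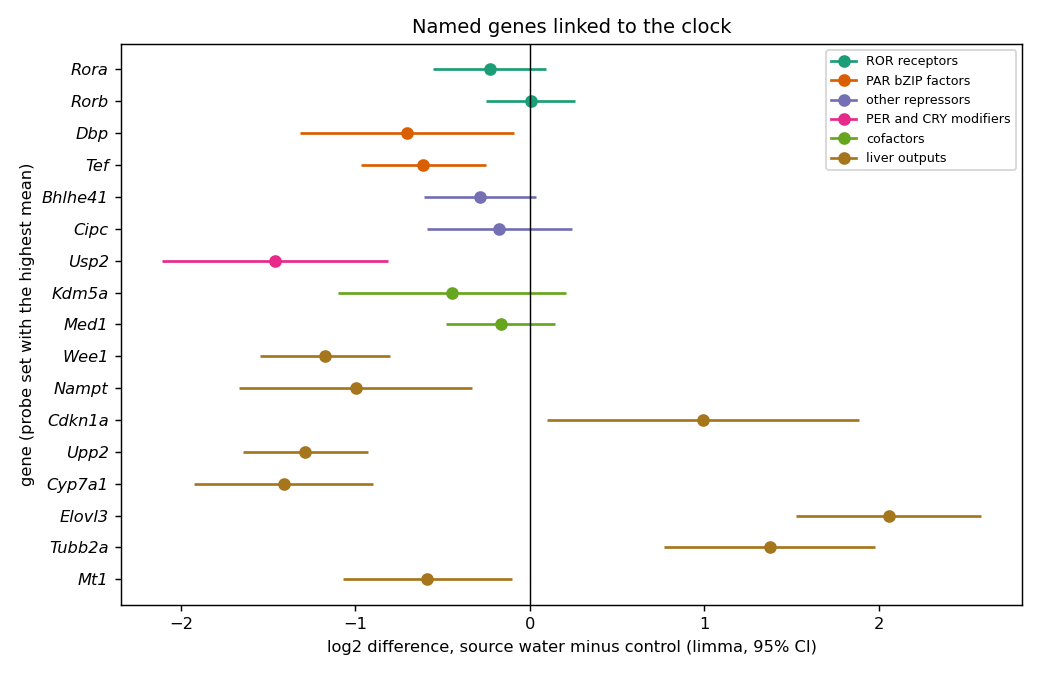
Log2 difference, source water minus control (x axis), with limma 95% confidence intervals, of the genes named from 6 lists of clock-linked genes (y axis), coloured by list. Elovl3 lies highest at 2.06 and Usp2 lowest at -1.46, and the intervals of the ROR receptors, other repressors and cofactors cross 0.

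In the authors' deposited table, 8 of the 16 clock probe sets had a p under 0.05, where 6.81% of all probe sets did. The authors' deposited table gave its smallest clock p to Arntl (0.000362), followed by Per3 (0.00211), and put Per2 at 0.0156. For Cry2 the authors' deposited table gave 0.0938. The ratios in the authors' deposited table followed from the same group means, with Arntl at 1.98 and Per3 at 0.430.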

How the data were processed

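The authors deposited a log2 signal for each probe set on each array. RMA and Partek appear in the submitters' processing notes, with neither version nor setting. The authors' deposited comparison table gives, for each probe set, log2 group means, the ratio of source water to control, a score (the ratio as a signed fold change) and a p-value, from a test not given in the sources used here. Arrays give no read depth, so their number limits the precision.

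The table lists 22690 probe sets, 64 of them array controls that were not tested. Symbols came from the platform annotation (1 symbol for 20380 probe sets, several for 691, none for 1555). A gene was represented by its probe set with the highest mean. Groups were compared with limma 3.58.1 in R 4.3.3 (lmFit, eBayes, no covariate). P-values were adjusted by Benjamini-Hochberg over the 22626 tested probe sets. The fit was also run on simulated data with independent normal noise. Such data meet the assumptions of the model, so that run is no check of how well they hold for these pools. In the filtered and gene-averaged alternatives the adjustment ran over fewer values. The RefSeq tables (GRCm38.p6) served for names, overlap and promoter letters.

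Named genes were all 10 members and, from each list, genes with unadjusted p under 0.05 and at least a 1.5-fold difference, or else the 2 of smallest p. Members and lists were chosen with earlier results of these data known. Nothing in the labels says that equal replicate numbers mark a shared batch. Alternatives were the replicate block, 2 normalizations, limma-trend, an unmoderated statistic, 2 filters on low signal, averaging a gene's probe sets, the authors' ratios and leaving out each array.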

Additional observations from a re-analysis of the deposited data

Results flagged for a closer look

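The bacterial spike-in RNAs, which the comparisons above do not use, gave a signal that separated the groups. The 3' minus 5' log2 signal of the first dap pair of probe sets ran from 2.36 to 2.65 in control and from 2.94 to 3.25 in source water, a difference of 0.54. That of the second dap pair ran from 1.21 to 1.64 in control and from 1.84 to 2.17 in source water, a difference of 0.60. That of the second thr pair ran from 2.52 to 2.91 in control and from 3.30 to 3.51 in source water, a difference of 0.61. Each had an exact two-sided permutation p of 0.1, the smallest that 3 arrays against 3 can give, and the remaining 7 of 10 RNA pairs compared, those of mouse Actb and Gapdh included, overlapped between the groups. The control arrays served as the level to compare with.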

How the results depend on the processing

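Of 213 values of the 16 clock probe sets under an alternative, 208 kept their direction and, where an adjusted p was given, their side of 0.05. Of the others, 2 came to pass it and 3 turned their sign. The authors' ratios have no adjusted p and come from the same group means. The replicate block, limma-trend, the unmoderated statistic and the filters leave the difference itself unchanged. In all of these the direction could not turn, so the 208 are no measure of robustness. Under a replicate block, 2 clock probe sets passed against 0, Per2 (limma adjusted p = 0.0453) and Per3 (0.0450), and 45 of all probe sets against 9. Same-numbered arrays deviated together at -0.07, 0.28 and 0.17, so the numbers are not shown to pair the pools. Over the other alternatives with all arrays, the smallest adjusted p of Per2 was 0.0527 and that of Nr1d1 0.0848, and the unmoderated statistic gave 0.531 and 0.615. The Nr1d1 value of 0.0848 came from a filter on low signal, which adjusts over fewer probe sets. Its unadjusted limma p there was 0.000492, against 0.000293 in the main fit. All probe sets past the adjusted threshold numbered 30 with repeated quantile normalization, 35 with limma-trend and 0 with the unmoderated statistic, which left 213 past the 1.5-fold rule against 337. That statistic also gave 2 PER and CRY modifiers in place of 1 and 7 liver outputs in place of 11, and repeated quantile normalization gave 1 further repressor in place of 0. The cause of these shifts was not tested.

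Leaving out 1 array gave 0 to 0 clock probe sets past the adjusted threshold, 6 to 7 past the 1.5-fold rule, 7 to 8 clock genes at an unadjusted p under 0.05, and 8 to 12 clock probe sets whose groups did not overlap, which fewer arrays make easier. All probe sets past the adjusted threshold ranged from 0 in the fit without control replicate 1 to 14 in that without control replicate 2, while 345 to 465 passed the 1.5-fold rule. List counts ran from 0 to 1 for ROR receptors, 2 to 3 for PAR bZIP factors, 1 to 2 for PER and CRY modifiers, 0 to 1 for cofactors, 0 to 0 for further repressors and 9 to 11 for liver outputs. Per2 stayed between -1.23 and -0.95 (adjusted p 0.0853 to 0.300), Arntl between 0.78 and 1.22, Per3 between -1.50 and -0.87, Cry1 between -1.03 and -0.62, and Nr1d1 between 0.74 and 1.01. Among clock-linked genes, Rorb turned its sign in 2 of 6 such runs (-0.055 to 0.056). Leaving out 1 array also moved Dbp (-1.02 to -0.41), Nampt (-1.19 to -0.66), Mt1 (-0.74 to -0.34), Cdkn1a (0.57 to 1.44), Kdm5a (-0.76 to -0.20), Cipc (-0.34 to -0.042), Rora (-0.36 to -0.16), Bhlhe41 (-0.35 to -0.17) and Med1 (-0.27 to -0.11) by over 1.5 times from the value with all arrays. Tef, which moved less from that value, still ran from -0.74 to -0.47. Elovl3 lost its call in 4 of 7 alternatives with all arrays, while Upp2 gained one under the replicate block, repeated quantile normalization and limma-trend, and without source water replicate 3 (lowest adjusted p 0.0145), Wee1 and Cyp7a1 under limma-trend (0.0450 and 0.0479) and Tubb2a under the replicate block (0.0235). A dim probe set of Per3 (-0.0028 to 0.055) and one of Nr1d2 (-0.075 to 0.083) turned sign. Background signal was not analysed here, so what it limits was not tested.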

Other observations

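Genes whose pattern over the 6 arrays was most like that of Arntl and Per2 were sought among 7147 and 7146 genes with a mean above the median probe set, as a description with no test, since all points share the 6 pools and the 2 groups, and a search of this width finds high values in any case. For Arntl the highest Pearson r belonged to Ptk2b, a tyrosine kinase gene (0.992), Armcx3 (0.991) and BC004004 (0.986), with log2 differences of 0.33, 0.34 and 0.55. The lowest r belonged to the histone gene H2az2 (-0.986), to Nr1i3, the gene of the xenobiotic receptor CAR (-0.976), and to Chchd7 (-0.971), with log2 differences of -0.13, -0.45 and -0.41. For Per2 the highest r belonged to the DNA repair gene Dclre1a (0.987), 1110059G10Rik (0.984) and Tbrg4 (0.982), with log2 differences of -0.99, -0.25 and -0.18. The lowest belonged to Nr0b2, the gene of the corepressor SHP (-0.996), Thap4 (-0.993) and Sdr42e1 (-0.989), with log2 differences of 0.71, 0.43 and 0.29.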
